A study of Mus musculus with 6 samples.

Results

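The TAM receptors Mertk, Axl and Tyro3, their ligands Gas6 and Pros1, and 5 marker genes of macrophages (Adgre1, Cd14, Ptprc, Lyz1 and Lyz2) were followed in RNA of RAW264.7 cells, a mouse macrophage line. These 10 genes were chosen by symbol among the 50599 genes of the deposited table, and each symbol was found. All cells carried a retroviral ∆Raf-1:ER construct, an oncoprotein that 4-hydroxytamoxifen (4-OHT) switches on, and had passed 7 days of selection in 70 µg/mL hygromycin B. The treated group received 100 nM 4-OHT (3 samples, replicates A, B and C) and is described by the submitters as senescent, and the other group received ethanol vehicle (3 samples, replicates A, B and C). Both were collected on day 3, after 24 hours without serum. The labels give no 4-OHT-treated cells without the construct, so an effect of the drug cannot be told apart from that of the oncoprotein. They also do not say that replicates came from separate cultures, so the p-values cover no more than the spread among these 6 libraries, which may be technical.

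TAM receptors are a family of receptor tyrosine kinases. Gas6 and protein S (the product of Pros1) bind phosphatidylserine on dying cells with a vitamin K-dependent Gla domain and the receptors with their other end, and so bridge the dying cell to the phagocyte. In macrophages MERTK is best known for the clearance of apoptotic cells, and AXL and MERTK together for damping Toll-like receptor and interferon responses. The markers stand for other macrophage functions. Adgre1 encodes F4/80, an adhesion G protein-coupled receptor that identifies mouse macrophages, Cd14 the co-receptor for bacterial lipopolysaccharide (LPS), Ptprc the leukocyte phosphatase CD45, and Lyz1 and Lyz2 the lysozymes that cleave bacterial cell walls.

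The deposited values are whole-number counts per gene scaled by 1 size factor per library, and are called normalized counts here. The unscaled counts are called reads, although it is not stated whether they are direct tallies or rounded estimates. The libraries held between 11629150 and 15943722 reads. Differences were tested with limma on log2(normalized count + 1), which understates the change of low genes, over the 11828 genes that passed a filter on low counts. A gene is called at an adjusted p (Benjamini-Hochberg) under 0.05. Of the 10 genes, 8 passed the filter, and Mertk and Tyro3 did not. Of these 8, 5 were called, 2 higher (Cd14, Ptprc) and 3 lower (Adgre1, Lyz1, Lyz2) with 4-OHT, against a background of 65.5% called among all genes tested (33.0% higher, 32.5% lower). The share of the 8 that was called, 62.5%, lies near that background. With scaling to library totals in place of the size factors, the all-gene median shifted by -0.31 (log2). Under it 1 of the 8 was called higher (Ptprc) and 4 lower, beside 74.5% of all genes called (19.1% higher, 55.4% lower), since Cd14 was no longer called and Pros1 was called lower. The signs of Axl and Gas6, called under neither scaling, turned. Changes below are relative to the deposited size factors unless the other scaling is named.

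**Figure D1:**
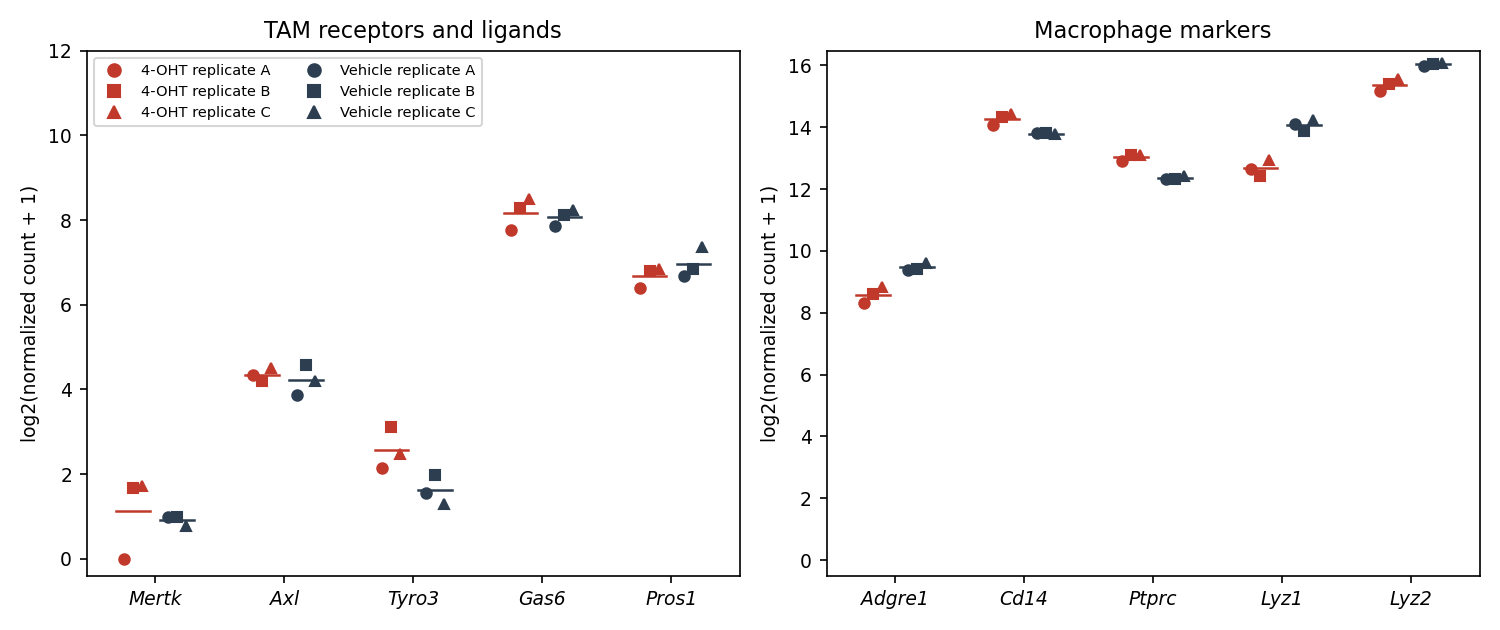
Normalized counts of the 10 genes in each library, on a log2(normalized count + 1) axis, with the 3 4-OHT libraries (red) left of the 3 vehicle libraries (dark blue), a symbol for each replicate letter and a bar at each group mean. Mertk, Axl and Tyro3 lie at the bottom of the range, and the groups of Adgre1, Cd14, Ptprc, Lyz1 and Lyz2 do not overlap.

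**Figure D2:**
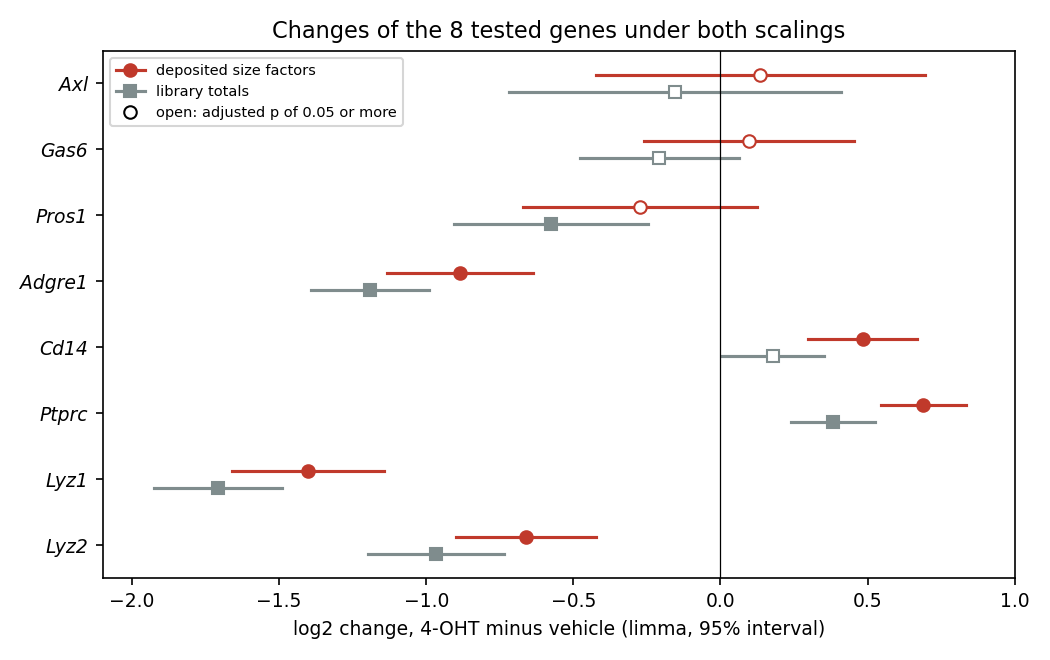
Log2 change of the 8 tested genes, 4-OHT minus vehicle, with the 95% interval from limma, for the deposited size factors (red circles) and for scaling to library totals (grey squares), filled where the adjusted p is under 0.05. The second scaling places each gene lower by a like amount, and Cd14 and Pros1 change sides of the threshold.

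Little receptor RNA was found in either group. Mertk (ENSMUSG00000014361.5, chromosome 2, 128698956 to 128802894, plus strand, GRCm38) had 0, 2 and 2 reads with 4-OHT (replicates in the order A, B, C, here and below), against 1, 1 and 1 read with vehicle. In normalized counts that is 0, 2.18 and 2.27 with 4-OHT and 0.975, 0.989 and 0.721 with vehicle. The groups overlap, and the ratio of 4-OHT over vehicle, 1.70, has an exact binomial interval (Clopper-Pearson, 95%) of 0.288 to 11.6. Intervals of this kind cover counting error only and take the counts as direct tallies of reads. So few reads show that Mertk was close to undetected at this depth, and no difference was detectable.

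Tyro3 (ENSMUSG00000027298.17, chromosome 2, 119797733 to 119818104, plus strand), the TAM receptor best known from the nervous system, had 3, 7 and 4 reads with 4-OHT and 2, 3 and 2 reads with vehicle. Normalized counts were 3.40, 7.65 and 4.53 with 4-OHT, and 1.95, 2.97 and 1.44 with vehicle. All 4-OHT values lie above all vehicle values, but only 21 reads support this. The ratio was 2.56, with an exact binomial interval of 0.965 to 7.48. An exact two-sided permutation test over the samples gave p = 0.10, the smallest that 3 against 3 samples allow. In the authors' deposited table Tyro3 has a log2 fold change of 1.32 and an adjusted p of 0.305.

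Axl (ENSMUSG00000002602.16, chromosome 7, 25757273 to 25788705, minus strand), which in mouse macrophages is known as the TAM receptor of inflammatory and interferon-exposed states, was the receptor with the most reads. It had 19.3, 17.5 and 21.5 normalized counts with 4-OHT, against 13.6, 22.7 and 17.3 with vehicle. The 4-OHT values lie within the range of the vehicle values. Axl averaged 19.4 ± 2.03 with 4-OHT and 17.9 ± 4.58 with vehicle (SD, n = 3 each). The log2 change was 0.14 ± 0.25 (SE, limma adjusted p = 0.657), with a 95% interval of -0.42 to 0.69, so a change of up to 1.62-fold upward or down to 0.746 times was not distinguishable from none. Its coefficient of variation, 10.5% with 4-OHT and 25.6% with vehicle, compares with 24.0% and 22.4% from counting error alone. At 14 to 24 reads a library, counting error alone is of the size of the measured spread. Under scaling to library totals the sign turned, at -0.15 (adjusted p = 0.616), and it also turned without vehicle replicate A, at -0.03 (adjusted p = 0.923).

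Summed, the 3 receptors had 22.7, 27.3 and 28.3 normalized counts with 4-OHT, and 16.6, 26.7 and 19.5 with vehicle, and these ranges overlap. Axl made up most of this RNA. Per kb of annotated exons it took 87.5%, 66.7% and 77.3% of the receptor sum in the 4-OHT libraries and 83.4%, 86.5% and 89.6% in the vehicle libraries. The Tyro3 share was 12.5%, 23.7% and 13.2% with 4-OHT and 9.68%, 9.16% and 6.06% with vehicle (exact permutation p = 0.10), and the Mertk share averaged 6.37% with 4-OHT and 5.20% with vehicle (exact permutation p = 0.80). Without 4-OHT replicate B the difference in the Tyro3 share was 4.58 percentage points, against 8.18 with all libraries, and that in the Axl share was -4.10, against -9.35. Without 4-OHT replicate A the Axl difference was -14.5. The genes whose profile over the 6 libraries lay nearest to that of Axl were Lars2, Prkrip1 and Slc25a33, with root mean square differences of 0.0858, 0.102 and 0.116 in centred log2 values among 8238 genes searched. All genes were measured over the same 6 libraries and so share their differences in depth and treatment. Counting error is large for Axl.

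The ligands were far better detected than the receptors. Gas6 (ENSMUSG00000031451.6, chromosome 8, 13465374 to 13494490, minus strand), the ligand of all 3 receptors, had 215, 311 and 358 normalized counts with 4-OHT, against 233, 279 and 301 with vehicle. The groups overlap, and replicate A was lowest in both. Gas6 averaged 295 ± 72.9 with 4-OHT and 271 ± 34.9 with vehicle (SD, n = 3 each), a log2 change of 0.10 ± 0.16 (SE, limma adjusted p = 0.614), with a 95% interval of -0.26 to 0.45. This outcome rests on 1 library. Without 4-OHT replicate A the change was 0.31 and called (adjusted p = 0.0234), whereas it was -0.06 without 4-OHT replicate C, -0.01 without vehicle replicate A and -0.21 under scaling to library totals.

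Pros1 (ENSMUSG00000022912.8, chromosome 16, 62854307 to 62929346, plus strand), which encodes the anticoagulant protein S, a ligand of MERTK and TYRO3, had 83.8, 110.3 and 114 normalized counts with 4-OHT, against 101, 114 and 163 with vehicle. Vehicle replicate C stood highest and the groups overlap. The log2 change was -0.27 ± 0.18 (SE, limma adjusted p = 0.202), with a 95% interval of -0.67 to 0.12, and it was -0.07 without vehicle replicate C. Under scaling to library totals Pros1 was called lower, at -0.58 (adjusted p = 0.00264). Gas6 took 80.5%, 81.9% and 83.4% of the summed ligand value per kb with 4-OHT, against 78.7%, 79.7% and 74.8% with vehicle. All 3 4-OHT libraries lie above all vehicle libraries, with a difference of 4.19 percentage points (exact permutation p = 0.10, the smallest possible), which was 2.72 without vehicle replicate C. This share does not depend on how libraries are scaled. Gas6 plus Pros1 together came to 398 ± 89.2 normalized counts with 4-OHT and 397 ± 65.1 with vehicle (SD, n = 3 each).

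Genes that work with the TAM system were read from lists chosen with earlier results of these data known, and are given as counts, to be read beside the all-gene percentages and an all-gene median of -0.02. Of 24 signalling partners of the receptors, 22 were tested, 8 were higher, 5 lower and 9 not called, with a median log2 change of 0.06. Under library totals 5 were higher and 13 lower. Socs3, a cytokine signalling inhibitor that TAM receptors are known to induce, rose 29.7-fold, to 1042 ± 189 with 4-OHT, against 35.04 ± 6.64 normalized counts with vehicle (limma adjusted p = 6.16e-10). Cblb, a ubiquitin ligase that acts on the receptors, rose 3.97-fold (adjusted p = 2.13e-09). Pik3r1, the regulatory subunit of PI3 kinase, rose 1.51-fold, and the adaptor Crk 1.38-fold, which was not called under library totals. Socs1, at 16.4 with 4-OHT and 9.01 normalized counts with vehicle, was not called, and Twist1 and Twist2 were listed at 0 reads in all 6 libraries.

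Among 8 other ligands of these receptors and bridging proteins, 3 were tested and all were higher, with a median of 1.47. Mfge8, which bridges phosphatidylserine to integrins, rose 2.80-fold, to 3918 ± 538 with 4-OHT, against 1401 ± 45.9 normalized counts with vehicle (limma adjusted p = 5.63e-08). Thbs1, thrombospondin-1, had 164 reads over the 4-OHT libraries and 1 read over the vehicle libraries, and passed the filter through its 4-OHT values. Lgals3, galectin-3, which can bind MERTK, was already abundant and rose 1.15-fold (adjusted p = 0.0292), but was not called under library totals, where its log2 change was -0.11. The complement bridging genes C1qa, C1qb and C1qc were at 0 reads.

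Soluble TAM receptors arise when ADAM proteases cut the ectodomain. Of 8 genes of shedding, 6 were tested, with 3 higher, 1 lower, 2 not called and a median of 0.27 (2 higher and 3 lower under library totals). The sheddase gene Adam17 fell to 0.711 times its vehicle level (adjusted p = 3.55e-05). Rhbdf2, which carries ADAM17 to the surface of myeloid cells, rose 2.62-fold, and Furin, a convertase that removes the prodomain of ADAM proteases, 7.83-fold (adjusted p = 8.43e-08 and 9.65e-11, limma). Adam10, the other main sheddase, had a log2 change of 0.08 and was not called. Pcsk7, a further convertase, rose 1.37-fold, and was not called under library totals.

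The Gla domains of Gas6 and protein S need the vitamin K cycle. Of 6 of its genes, 5 were tested, 1 was lower and 4 were not called, with a median of -0.02, while all 5 were lower under library totals. Vkorc1, the vitamin K epoxide reductase, fell to 0.550 times its vehicle level, to 26.9 ± 3.98 with 4-OHT, against 48.8 ± 3.47 normalized counts with vehicle (limma adjusted p = 0.00171). The carboxylase gene Ggcx stood at 143 normalized counts in each group, with a log2 change of 0.00, and was lower under library totals, at -0.31 (adjusted p = 0.0239). Vkorc1l1, Aifm2 and Calu had log2 changes of -0.02, -0.18 and 0.14 and were not called.

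Other receptors for apoptotic cells formed a list of 18, of which 11 were tested, 4 were higher, 3 lower and 4 not called, with a median of 0.01 (4 higher and 7 lower under library totals). The vitronectin receptor subunits Itgav and Itgb3 are partners of the bridge Mfge8. Itgav rose 3.88-fold, and Itgb3 had 10829 reads over the 4-OHT libraries and 24 over the vehicle libraries, and passed the filter through its 4-OHT values. Havcr2, the phosphatidylserine receptor TIM-3, rose 7.54-fold and Cd300lf 3.01-fold (adjusted p = 4.58e-09 and 9.61e-05, limma). Scarb1, the scavenger receptor SR-B1, fell to 0.758 times its vehicle level. Stab1 fell further, to 0.549 times, and Scarf1 to 0.660 times (limma adjusted p = 0.000703 and 0.00205). Lrp1, Cd36 and Msr1, abundant uptake receptors of this line, had log2 changes of 0.01, 0.07 and -0.06 and were not called, but were called lower under library totals. Timd4 was at 0 reads. Of 9 genes of phosphatidylserine exposure, 7 were tested, with 3 higher, 1 lower and 3 not called (2 higher and 3 lower under library totals) and a median of 0.28. The flippase gene Atp11a rose 2.11-fold and Atp8b4 1.44-fold, Atp8a1 fell to 0.644 times its vehicle level, and the flippase chaperone Tmem30a rose 1.27-fold, which was not called under library totals.

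**Figure D3:**
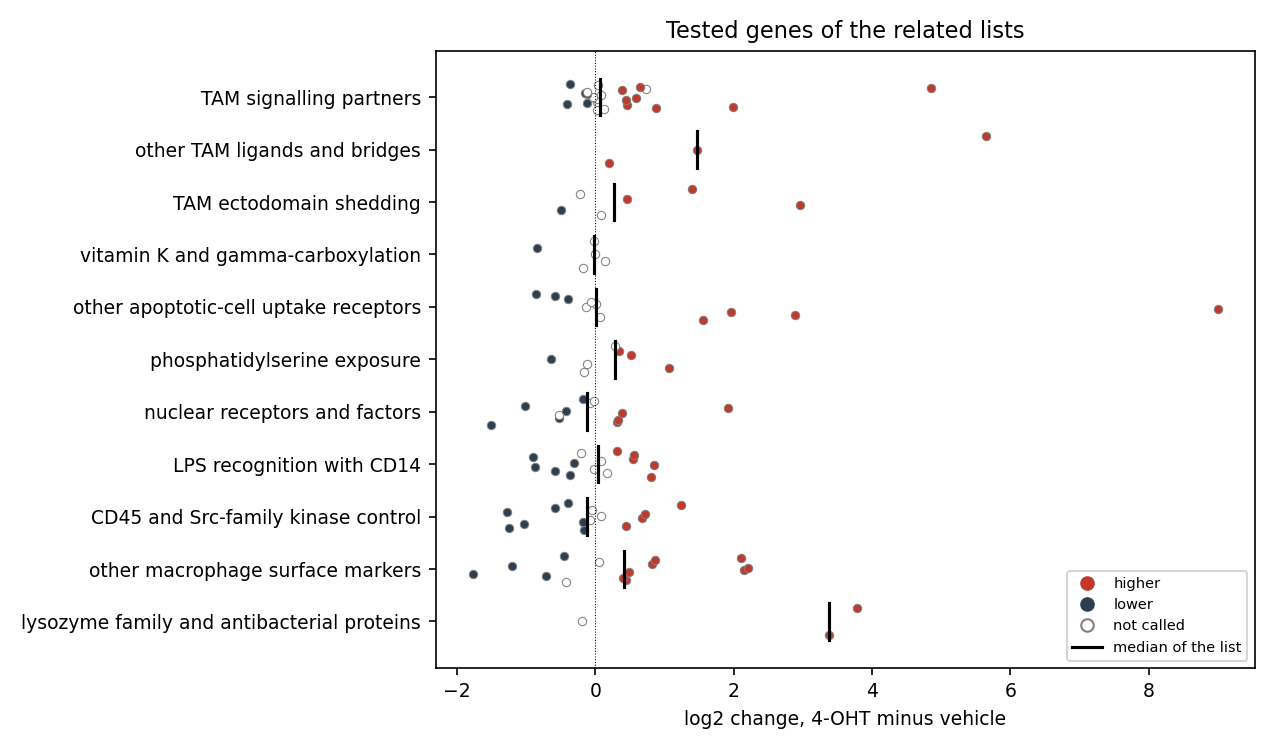
Log2 change, 4-OHT minus vehicle, of each tested gene in the 11 related lists, with genes called higher in red, called lower in dark blue and not called in white, and a bar at the median of each list. The values are those of the deposited size factors, and most lists have genes on both sides of 0.

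By normalized count Cd14, Ptprc, Lyz1 and Lyz2 were abundant and Adgre1 much less so. The marker genes did not move as a group. Ptprc (ENSMUSG00000026395.16, chromosome 1, 138062861 to 138175708, minus strand), which sets the activity of Src-family kinases in leukocytes, had 7663, 8799 and 8874 normalized counts with 4-OHT, against 5092, 5126 and 5462 with vehicle. Every 4-OHT library lies above every vehicle library. Groups did not overlap for 5 of the 8 tested genes described here, against 70.7% of all genes tested, in either direction. Ptprc rose 1.62-fold, a log2 change of 0.69 ± 0.07 (SE, limma adjusted p = 3.14e-06), and stayed called under library totals, at 0.38 (adjusted p = 3.91e-05). Of 15 genes of CD45 and Src-family kinase control, 14 were tested, 4 were higher, 7 lower and 3 not called, with a median of -0.12 (3 higher and 10 lower under library totals). The kinases that CD45 acts on moved in both directions. Src rose 2.35-fold and Lyn 1.59-fold, while Fgr fell to 0.420 times its vehicle level (limma adjusted p from 1.47e-07 to 6.53e-06). Ptpn6, the phosphatase SHP-1, fell to 0.411 times its vehicle level, to 1551 ± 2.05 with 4-OHT, against 3778 ± 35.3 normalized counts with vehicle. These directions were the same under library totals.

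Cd14 (ENSMUSG00000051439.6, chromosome 18, 36725074 to 36726736, minus strand) had 17321, 20766 and 21908 normalized counts with 4-OHT, against 14353, 14305 and 14023 with vehicle. The groups do not overlap, and the 4-OHT libraries spread more, with a coefficient of variation of 11.9% against 1.26% with vehicle. Cd14 rose 1.41-fold, a log2 change of 0.48 ± 0.08 (SE, limma adjusted p = 0.000371), but under library totals its log2 change was 0.18 and not called (adjusted p = 0.0597). Of 15 genes of LPS recognition, 14 were tested, 5 were higher, 5 lower and 4 not called, with a median of 0.03 (4 higher and 8 lower under library totals). Cd180, an LPS-related receptor, rose 1.75-fold, and its partner Ly86 (MD-1) fell to 0.542 times its vehicle level (limma adjusted p = 1.21e-06 and 6.30e-06). The adaptor Tirap rose 1.48-fold, and the kinase Irak1 fell to 0.665 times its vehicle level. Tlr4, the receptor that CD14 serves, had a log2 change of -0.21 and was not called (adjusted p = 0.0578), but was called lower under library totals. In the same list Ly96 rose 1.82-fold and Ticam2 fell to 0.535 times its vehicle level (limma adjusted p = 0.000119 and 2.93e-05). Both were called in the same directions under library totals.

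Adgre1 (ENSMUSG00000004730.14, chromosome 17, 57358686 to 57483529, plus strand) had 318, 386 and 456 normalized counts with 4-OHT, against 663, 687 and 776 with vehicle. The groups do not overlap. Adgre1 fell to 0.545 times its vehicle level, a log2 change of -0.89 ± 0.11 (SE, limma adjusted p = 3.52e-05), or -1.19 under library totals. Of its relatives, Adgre5 had 14 reads over the 4-OHT libraries and 19 over the vehicle libraries and was not tested, and Adgre4 was at 0 reads. Of 17 genes in the list of adhesion receptors and other macrophage surface markers, 14 were tested, 8 were higher, 4 lower and 2 not called, with a median of 0.41 (4 higher and 5 lower under library totals). Itgam, the CD11b integrin subunit, rose 4.63-fold, to 2117 ± 73.9 with 4-OHT, against 458 ± 8.68 normalized counts with vehicle (limma adjusted p = 4.56e-11). The Fc receptor gene Fcgr3 rose 4.53-fold and Siglec1, sialoadhesin, 4.41-fold. Itgax, the CD11c subunit, fell to 0.432 times and Cx3cr1 to 0.291 times its vehicle level. Csf1r, the receptor for the macrophage growth factor CSF-1, fell to 0.611 times, and Cd68 rose 1.32-fold, which was not called under library totals.

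Lyz1 and Lyz2 changed most in reads. Lyz2 is the lysozyme of mouse macrophages and neutrophils, and Lyz1 is best known from Paneth cells of the gut. Lyz1 (ENSMUSG00000069515.6, chromosome 10, 117287797 to 117292868) and Lyz2 (ENSMUSG00000069516.8, chromosome 10, 117277331 to 117282321) lie on the minus strand, 5475 bases apart. Both have 4 exons and a coding sequence of 447 bases, which differs at 22 positions, an identity of 95.1%. The stretch with the most differences in a single exon, of the length of 1 sequencing run (86 cycles), is printed to show what tells reads of the 2 genes apart, with differing bases in capitals. It lies in exon 1, at chr10:117292707-117292792 for Lyz1 and chr10:117282111-117282196 for Lyz2 (GENCODE M21 transcripts, GRCm38, 5′ to 3′ on the minus strand), and holds 13 differences.
Lyz1: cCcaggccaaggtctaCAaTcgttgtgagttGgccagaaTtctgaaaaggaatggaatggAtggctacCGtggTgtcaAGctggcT
Lyz2: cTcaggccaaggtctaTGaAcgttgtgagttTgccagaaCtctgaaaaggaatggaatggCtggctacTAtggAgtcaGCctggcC
Of the 1178 windows of 86 bases in the Lyz1 transcript, 52, or 4.41%, occur unchanged in the Lyz2 transcript, and 36.6% occur there with at most 2 mismatches. How such reads were assigned is not stated, so the split between the genes is less certain than their sum.

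Lyz2 had 37103, 43432 and 48262 normalized counts with 4-OHT, against 65221, 67662 and 69513 with vehicle. The groups do not overlap. Lyz2 fell to 0.636 times its vehicle level, a log2 change of -0.66 ± 0.11 (SE, limma adjusted p = 0.000239), and took 0.301% of all reads with 4-OHT, against 0.586% with vehicle (means of 3 libraries). By mean normalized count it ranked 22 of all genes in the table with 4-OHT and 5 with vehicle. Lyz1 had 6420, 5529 and 7779 normalized counts with 4-OHT, against 17504, 15076 and 19272 with vehicle. It fell to 0.380 times its vehicle level, a log2 change of -1.40 ± 0.12 (SE, limma adjusted p = 1.16e-06), and its rank was 277 with 4-OHT and 47 with vehicle. Under library totals the changes were -0.97 for Lyz2 and -1.71 for Lyz1, both called.

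The sum of Lyz1 and Lyz2, which is free of the split, was 43523, 48961 and 56041 normalized counts with 4-OHT, against 82726, 82738 and 88786 with vehicle. That is 0.584 times the vehicle level (exact permutation p = 0.10, the smallest possible). The Lyz2 share of the pair per kb was 84.7%, 88.3% and 85.6% with 4-OHT, against 78.1%, 81.2% and 77.6% with vehicle, 7.25 percentage points higher with no overlap between groups (exact permutation p = 0.10). This share does not depend on library scaling. Of 13 genes in the list of the lysozyme family and antibacterial proteins, only 3 were tested. Lyzl4, a lysozyme-like gene, rose to 71 reads over the 4-OHT libraries, against 6 over the vehicle libraries, and Slpi, an inhibitor of leukocyte proteases, rose 15.9-fold. Both passed the filter through their 4-OHT values. Slc11a1, a metal transporter of phagosomes, had a log2 change of -0.19 and was not called, but was lower under library totals. Bpi, Camp and Ctsg were among 7 genes at 0 reads.

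**Figure D4:**
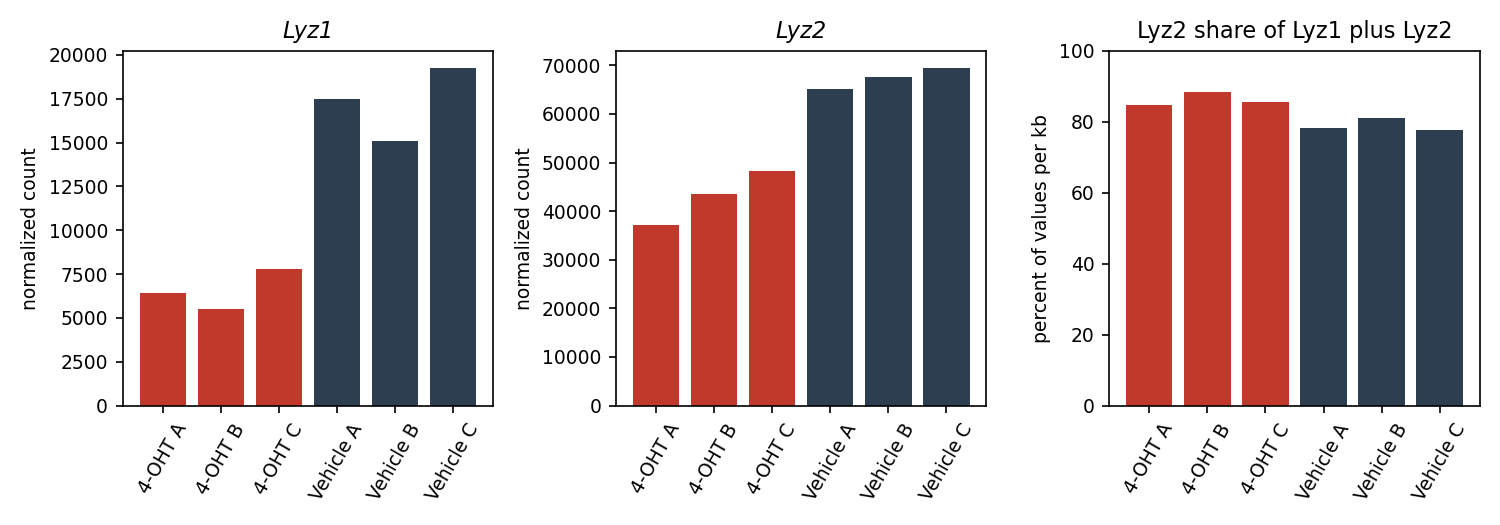
Normalized counts of Lyz1 and Lyz2 and the Lyz2 share of their summed values per kb, with 1 bar for each library, 4-OHT (red) left of vehicle (dark blue). Both genes are lower in every 4-OHT library than in every vehicle library, and the Lyz2 share is higher.

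The 250 bases before the RefSeq transcription start of each lysozyme gene are given because the genes fell together, to different extents. They are RefSeq windows of GRCm38.p6, 5′ to 3′ on the minus strand, at chr10:117292869-117293118 for Lyz1 and chr10:117282273-117282522 for Lyz2. The deposited coordinates place the start of Lyz2 further upstream, at 117282321. The last bases of its window, with the TATA-like letters named below, thus lie inside the gene as placed there. The Lyz1 window ends just before the deposited start of that gene. Capitals mark matches on either strand to an ETS family core, as bound by PU.1, which was searched as AGGAAG, and to the C/EBP letters TTNNGCAA. They also mark a TATA-like motif, chosen after the sequences were seen and searched as TTAAATA.
Lyz1: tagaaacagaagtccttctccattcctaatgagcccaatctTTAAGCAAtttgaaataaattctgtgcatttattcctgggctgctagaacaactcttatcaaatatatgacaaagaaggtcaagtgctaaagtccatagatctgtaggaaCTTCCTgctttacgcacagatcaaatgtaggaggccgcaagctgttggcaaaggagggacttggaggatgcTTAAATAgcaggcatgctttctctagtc
Lyz2: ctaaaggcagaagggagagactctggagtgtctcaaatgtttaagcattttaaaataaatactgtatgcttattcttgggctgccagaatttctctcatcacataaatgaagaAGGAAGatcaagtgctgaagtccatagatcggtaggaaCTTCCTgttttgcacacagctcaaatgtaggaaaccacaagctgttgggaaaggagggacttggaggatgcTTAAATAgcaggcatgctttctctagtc
The windows are 79.4% identical, and 98.3% over the last 60 bases. Both hold the ETS core on the opposite strand at position -99 from the start and the TATA-like letters at -28. Lyz2 alone has a further ETS core at -137, and Lyz1 alone has the C/EBP letters at -209. On either strand, 29.5% of all 32851 promoter windows of this length hold the ETS core, 9.56% the C/EBP letters and 4.18% the TATA-like letters. The AP-1 motif TGANTCA, held by 6.75% of windows, is in neither of the windows of Lyz1 and Lyz2. These motif letters do not overlap each other in either window, and a match is a description of the sequence only.

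A list of 14 nuclear receptors and macrophage transcription factors held PU.1, C/EBP and LXR genes. Of these 14, 12 were tested, 4 were higher, 5 lower and 3 not called, with a median of -0.13 (1 higher and 8 lower under library totals). Cebpa, a C/EBP factor of myeloid cells, fell to 0.342 times its vehicle level, to 54.1 ± 3.42 with 4-OHT, against 158 ± 31.8 normalized counts with vehicle (limma adjusted p = 4.90e-06). Cebpb rose 1.24-fold (adjusted p = 0.000553), but had a log2 change of 0.00 under library totals. Spi1, which encodes PU.1, fell to 0.880 times its vehicle level (adjusted p = 0.0260). Among the nuclear receptors, Ppard rose 3.80-fold and Pparg fell to 0.493 times its vehicle level. Nr1h2, which encodes LXR beta, rose 1.31-fold and was not called under library totals, while Nr1h3, LXR alpha, a known activator of Mertk in mouse macrophages, fell to 0.745 times.

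Per kb of annotated exons, the order of the means with vehicle was Lyz2 (51265), Lyz1 (13685), Cd14 (8214), Ptprc (285), Adgre1 (219), Gas6 (106), Pros1 (30.8), Axl (3.56), Tyro3 (0.342) and Mertk (0.206). With 4-OHT, Cd14, at 11546 ± 1379 normalized counts per kb, stood above Lyz1, at 5207 ± 897. With 4-OHT, Adgre1 (119 ± 21.2) and Gas6 (116 ± 28.6) did not differ beyond their spread, nor did Tyro3 (0.838 ± 0.355) and Mertk (0.342 ± 0.297). For Ptprc the annotated exons add up to 18313 bases, and per kb of its longest coding transcript (5074 bases) it stood at 1664 with 4-OHT and 1030 with vehicle. Only 3.33% of the tested genes had a lower mean per kb than Axl. For Gas6 this share was 59.2%, for Adgre1 70.4% and for Lyz2 99.8%.

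Macrophage genes were unequally detected. Csf1r averaged 10437 ± 702 normalized counts with 4-OHT and 17096 ± 569 with vehicle (SD, n = 3 each), and Mpeg1 11795 ± 1848 with 4-OHT and 11301 ± 1415 with vehicle. Other macrophage markers were low, with Mrc1 at 20.9 with 4-OHT and 11.1 with vehicle, Aif1 at 8.55 with 4-OHT and 10.6 with vehicle, and Cd163 at 0 in all libraries. Markers of other cell types were sparse, apart from Vwf at 451 ± 71.6 normalized counts with 4-OHT and 333 ± 41.4 with vehicle. Some moved with 4-OHT. The summed level of 9 fibroblast markers ranged from 36.2 to 45.9 normalized counts with 4-OHT and from 3.60 to 6.92 with vehicle (Fap had 91 reads over the 4-OHT libraries and 3 over the vehicle libraries), with Col3a1, Lum and Thy1 at 0. The sum of 9 lymphocyte markers ranged from 14.7 to 19.3 with 4-OHT and from 2.92 to 8.65 with vehicle, with Ms4a1 at 0. Pax5, a B cell factor, held most of this sum with 4-OHT, at 37 reads, but not with vehicle, at 6 reads. Cd4 and Cd3e went the other way, with 1 read each over the 4-OHT libraries and 9 and 4 over the vehicle libraries. That of 10 neutrophil and mast cell markers ranged from 49.9 to 92.9 with 4-OHT and from 26.7 to 51.2 with vehicle, with Ly6g, S100a9, Cpa3, Fcer1a and Tpsb2 at 0. That of 8 dendritic cell markers ranged from 19.3 to 30.6 with 4-OHT and from 10.9 to 18.5 with vehicle, with Siglech and Batf3 at 0. The 9 epithelial and endothelial markers, mostly Vwf, ranged from 439 to 579 with 4-OHT and from 306 to 387 with vehicle, with Krt8 and Krt18 at 0. Of these lists, 1 of 9 fibroblast, 0 of 9 lymphocyte, 2 of 10 neutrophil and mast cell, 2 of 8 dendritic and 3 of 9 epithelial and endothelial genes were tested, and Fap, S100a8, Xcr1, Cdh5, Kdr and Vwf were higher (Vwf was not called under library totals) and Csf3r lower. Fap, S100a8, Xcr1, Cdh5 and Kdr had 3 to 10 reads over the vehicle libraries and passed the filter through their 4-OHT values. Their part in the results above was not tested, and in these bulk samples fewer cells of a type and less RNA per cell cannot be told apart.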

How the data were processed

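Messenger RNA libraries of 6 samples were sequenced. Per the submitters' processing notes, bcl2fastq 2.20, Trimmomatic 0.35, STAR 2.5.1b, RSEM and DESeq2 1.18.1 were used, on GRCm38 (also given as mm10). What each tool did, the strand setting and the treatment of shared reads are not given in the sources used here. The deposited signal per gene is a count divided by a size factor. In each column 100% of positive values are whole multiples of a single step within 1e-06. Whole-number counts, called reads here, were recovered by dividing by it. With RSEM among the tools, they may be rounded estimates and not direct tallies. The deposited table also holds the authors' log2 fold change, p-value and adjusted p-value, per the file headers.

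The members and lists were chosen with earlier results of these data known. The fit used limma 3.58.1 in R 4.3.3 on log2(value + 1), with a mean-variance trend, group as the only term and all 6 samples. Low genes were removed by filterByExpr of edgeR 4.0.16, run on the recovered reads with a minimum count of 10. The fit was tested on simulated counts of 11828 genes with a fixed dispersion, of which 200 were changed. It called 67 of 100 genes changed 1.5-fold and 91 of 100 changed 2-fold, with 6 false calls among 11628 unchanged genes. Far fewer genes were changed there than the 65.5% called in the data, so the simulation does not cover that setting. Named genes are all members, in each list the 4 with the smallest p and any called at least 2-fold, and the 3 genes most like each tested receptor. Members of lists outside this rule were chosen after their values were seen. Lengths are unions of all GENCODE M21 exons of a gene, matched without version for Adgre1 and Cd14, whose version differs there. Coordinates of genes are those of the deposited table. Where a symbol stood on more than 1 row (Itgam), the row with the most reads was used. Alternatives were other pseudocounts, no filter, library totals, edgeR, DESeq2 1.42.0, the authors' table, a replicate block and leaving out each library. An edgeR fit without vehicle replicate B, whose recovered reads an earlier unit check had not accepted, and a division by the longest coding transcript were chosen after seeing the data.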

Additional observations from a re-analysis of the deposited data

How the results depend on the processing

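The number called among the 10 genes was 5 under each of the 15 alternatives except 1, where leaving out 4-OHT replicate A gave 6 with Gas6. Under scaling to library totals 1 of them was higher and 4 lower, all genes split into 2259 higher and 6549 lower (3902 and 3848 with the deposited size factors), and the genes of the related lists into 29 higher and 62 lower (44 and 32). Adgre1, Ptprc, Lyz1 and Lyz2 kept their direction and call under each alternative run, with log2 changes of -1.19 to -0.75, 0.38 to 0.76, -1.71 to -1.28 and -0.97 to -0.56. Cd14 (0.18 to 0.58) was not called under library totals. Axl turned to -0.15 and Gas6 to -0.21 under library totals. With 1 library left out, Axl ranged from -0.034 to 0.31, Gas6 from -0.058 to 0.31, and the difference in the Mertk share from -0.48 to 4.36 percentage points. The causes of these reversals were not tested.

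With a replicate block, 7972 genes were called in all, 83 in the related lists and 5 of the 10 genes, and no call among the 10 changed. Pairing was checked on log2 values from which the mean of each gene within its group had been subtracted. Between samples of the same letter these deviations correlated at 0.109, 0.0363 and 0.121 (A, B and C). The labels do not say that the letters pair samples, and the main fit did not pair them. These correlations were low, but the deviations of each sample correlated best with those of its own letter. With the block the SE fell from 0.117 to 0.054 for Lyz1 and from 0.162 to 0.089 for Gas6. It was smaller for each tested gene of the 10 except Axl, where it rose from 0.254 to 0.272. The exact sign-flip test over pairs gave p = 0.25 for the Tyro3, Gas6 and Lyz2 shares, the smallest that 3 pairs allow. Depth limits Mertk and Tyro3, with 7 and 21 reads in all.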
